A study of Mus musculus with 46 samples.

Results

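The constructs described here carried a promoter placed before a candidate cis-regulatory element (cCRE) in the Tfcp2l1 library of a massively parallel reporter assay. They were chosen by 3 criteria in the authors' deposited table of all upstream combinations, namely the Tfcp2l1 locus, the class PE (promoter first, cCRE second), and an activity above 0 in each of 3 biological replicates. Of 5239 such constructs listed, 4720 met the last criterion, and 519 (9.91%) had a replicate at 0. They came from 55979 Tfcp2l1 constructs with 2 fragments and from 89291 in the whole series. They combined 24 promoter fragments with 198 cCREs, or 43 promoters and 358 cCREs when each strand was counted separately. The study transfected E14TG2a cells, an established mouse embryonic stem cell line kept in medium with 2i and LIF, by nucleofection with plasmid pools in which barcodes in reporter RNA identify the construct. RNA was taken 24 h later. All groups compared here came from the same 3 cDNA samples, so that the cells, medium and time were shared and only the construct differed: promoter first, cCRE first (class EP, 5599 constructs, 5065 of them above 0 in all replicates), or 1 fragment alone. The 3 samples were independent transfections with the same plasmid pool, and their spread cannot show how far 2 barcoded plasmids of 1 construct differ. The numbers of reads and barcodes behind an activity were not given in the sources used here, so the depth is unknown.

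A promoter is the stretch of DNA around a transcription start at which RNA polymerase is loaded, and it works in 1 main direction. A cCRE is a stretch with the chromatin marks of a regulatory element, and enhancers among them raise transcription from promoters at a distance and in either orientation. Many enhancers also start transcription of their own. Tfcp2l1 encodes a transcription factor of naive pluripotency, and its locus on chromosome 1 also holds genes used in most cells and genes restricted to particular tissues. In the study's upstream design both fragments lie upstream of the reporter and the second lies next to it, although the labels used here do not spell this out. With the promoter first, the cCRE then lies between the promoter and the reporter.

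The sequences of 6 promoters are shown because their order differences, described below, range from strongly negative to positive. The RefSeq starts used were those with a promoter sequence at hand, and they lay inside 12 of the 26 promoter fragments of the library. Other fragments, such as those of Ptpn4 and Epb41l5, reached a RefSeq gene edge but held none of these starts. Each line gives the 250 bases before the RefSeq start (GRCm38.p6, the strand of the gene), all of which lie inside the tested fragment. Capitals mark GC boxes, the motif of Sp and Klf factors, searched as GGGCGG on the given strand and CCGCCC on the other.
Nifk: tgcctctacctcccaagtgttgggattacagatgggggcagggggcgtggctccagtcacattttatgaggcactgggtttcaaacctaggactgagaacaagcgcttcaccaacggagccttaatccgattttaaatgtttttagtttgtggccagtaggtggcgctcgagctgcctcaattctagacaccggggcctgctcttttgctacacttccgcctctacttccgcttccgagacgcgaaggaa
Ralb: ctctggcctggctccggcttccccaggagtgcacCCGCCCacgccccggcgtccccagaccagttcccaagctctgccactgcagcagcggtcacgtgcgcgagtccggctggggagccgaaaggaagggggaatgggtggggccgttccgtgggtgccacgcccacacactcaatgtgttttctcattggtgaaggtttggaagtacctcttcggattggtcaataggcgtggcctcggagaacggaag
Tmem177: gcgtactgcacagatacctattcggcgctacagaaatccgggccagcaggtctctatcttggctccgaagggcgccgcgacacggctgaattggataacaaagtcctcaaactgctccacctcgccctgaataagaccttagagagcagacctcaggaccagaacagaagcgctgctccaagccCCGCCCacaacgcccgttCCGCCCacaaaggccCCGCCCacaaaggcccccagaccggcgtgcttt
C1ql2: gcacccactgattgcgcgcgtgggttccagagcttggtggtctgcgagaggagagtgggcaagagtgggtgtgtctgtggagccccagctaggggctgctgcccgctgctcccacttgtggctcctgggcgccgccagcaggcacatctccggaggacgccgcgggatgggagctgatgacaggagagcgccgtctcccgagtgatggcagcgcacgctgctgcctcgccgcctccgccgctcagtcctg
Marco: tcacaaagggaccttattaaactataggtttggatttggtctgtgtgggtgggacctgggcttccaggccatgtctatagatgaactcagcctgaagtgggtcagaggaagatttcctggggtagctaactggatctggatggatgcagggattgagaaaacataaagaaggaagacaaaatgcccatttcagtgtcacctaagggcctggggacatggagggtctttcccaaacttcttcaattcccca
3830432H09Rik: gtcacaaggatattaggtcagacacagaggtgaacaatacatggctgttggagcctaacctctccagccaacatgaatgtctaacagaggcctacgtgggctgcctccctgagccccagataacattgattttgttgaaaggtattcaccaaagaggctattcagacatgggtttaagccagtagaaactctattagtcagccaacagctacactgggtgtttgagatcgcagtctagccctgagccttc
The Nifk stretch lies at chr1:118321593-118321842 on the plus strand and holds 12 CpG and 0 GC boxes. The Ralb stretch lies at chr1:119504783-119505032 on the minus strand and holds 18 CpG and 1 GC box. The Tmem177 stretch, at chr1:119913184-119913433 on the minus strand, holds 18 CpG and 3 GC boxes. The C1ql2 stretch lies at chr1:120340332-120340581 on the plus strand and holds 20 CpG with 0 GC boxes. The Marco stretch lies at chr1:120505025-120505274 on the minus strand and holds 0 CpG and 0 GC boxes. The 3830432H09Rik stretch lies at chr1:119536166-119536415 on the minus strand and holds 2 CpG and 0 GC boxes. Of 32851 RefSeq windows of the same 250 bases, 32.7% held a GC box, and the median window held 6 CpG. Nifk, Ralb and Tmem177 were strong alone in the construct the file calls plus, and in that strand they had much lower activity placed first than placed second. C1ql2, Marco and 3830432H09Rik were weak alone and gave differences above 0, of which only that of 3830432H09Rik was called with both strands averaged. Neither the CpG count nor the GC box separated these 3 from the first 3, since C1ql2 had the most CpG of the 6 and Nifk had 0 GC boxes.

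Activity, the ratio of barcodes in reporter RNA (cDNA) to barcodes in the plasmid input (pDNA), ranged over the 4720 constructs from 0.00315 to 40.2 with a median of 0.191 (geometric means of 3 replicates). The file also lists a construct with a fragment called eempty in both positions, which the labels do not describe. Its activities were 0.0459, 0.0658 and 0.0654 in replicates 1 to 3, and 1319 constructs (27.9%) lay below it. The same fragment alone gave 0.161, 0.186 and 0.190, so the pair was lower than the single fragment by a log2 difference of -1.62. Activities of the 4720 constructs correlated between replicates with Pearson's r from 0.889 to 0.903 on the log2 scale. Zeros were most frequent in replicate 1, with 404 of the 5239 listed constructs, against 85 in replicate 2 and 137 in replicate 3.

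For 2412 of the constructs the reverse order was listed. Of these, 178 were left out because the reverse construct had a replicate at 0, which left 2234 matches of 20 promoters and 156 cCREs. With the promoter first, activity was lower in 651 matches (29.1%) and higher in 414 (18.5%) (limma with Benjamini-Hochberg adjustment, adjusted p under 0.05). These 1065 calls made up 47.7% of the matches, against 41.1% of all 11079 reverse-order matches of the library and 39.2% of the 8710 matches between 2 cCREs, in which order has no such meaning. The median difference was -0.25 on the log2 scale, with quartiles of -1.56 and 1.01. In 900 of the 2234 matches all 3 replicates with the promoter first lay below their own partner, and in 664 all 3 lay above it. Such counts were not made for the other reverse-order matches of the library, so they show nothing particular to promoters and cCREs. The count of calls depended on replicates 2 and 3, and was 668 without replicate 2 and 699 without replicate 3.

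The calls fell unevenly over groups of promoters. Genes were grouped by known role. A promoter was given a protein-coding gene where its fragment lay within 500 bp of that gene's RefSeq edge, or else a gene whose RefSeq start it held. Promoters of broadly expressed genes had 898 matches, of which 499 (55.6%) were lower and 71 (7.91%) higher with the promoter first, with a median difference of -1.30. Promoters of developmental or tissue-restricted genes had 471 matches, with 67 lower and 113 higher and a median of 0.32. The remaining promoters, most of them given no gene by this rule, had 718 matches, with 61 lower and 207 higher and a median of 0.58. The 147 matches of the Tfcp2l1 promoters were balanced, with 24 lower, 23 higher and a median of -0.37. Of the 4 groups only the broadly expressed one had far more lower than higher calls, beside a median of -0.25 over all 2234 matches. Single promoters weighed heavily in these counts. Ptpn4 supplied 372 of the 898 broadly expressed matches, and its plus strand 187 of the 499 lower calls. Gli2 supplied 254 of the 471 matches of its group, and P016 423 of the 718 of the remaining promoters. Matches of 1 promoter share its fragment and are not separate members of a group. No test compared the groups of genes with each other.

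Averaged over their matches, 9 of the 15 promoters with at least 10 matches changed with order (limma with Benjamini-Hochberg adjustment), which is 60% of those tested, and 6 of these fell (40%) and 3 rose (20%). The 6 that fell were all in the broadly expressed group. With the replicate as a block, which pairs values of the same transfection, 14 of the 15 were called, 7 of them higher and 7 lower. The p with the block followed the size of the difference and not the promoter's own spread. The adjusted p by limma with the block was 1.51e-08 for Marco (0.48, SD 0.03) and 1.6e-08 for 3830432H09Rik (0.47, SD 0.17). Without replicate 1 the number called higher was 7, without replicate 3 it was 1, and the number called lower stayed at 6 without any 1 replicate.

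The promoter of Ralb, a Ras-like GTPase, showed the largest fall. Its mean activity over 71 matches was 0.515, 0.564 and 0.637 in replicates 1 to 3 with the promoter first and 2.46, 3.03 and 3.09 with the cCRE first. The log2 difference was -2.32 ± 0.09 (SD, n = 3, adjusted p 5.26e-06 by limma), and no replicate of one order reached the other. Ptpn4, a protein tyrosine phosphatase, followed over 372 matches. Its means were 0.582, 0.650 and 0.685 with the promoter first against 2.26, 2.37 and 2.57, a difference of -1.91 ± 0.05 (SD, n = 3, adjusted p 5.26e-06 by limma). Tmem177, a gene of mitochondrial cytochrome oxidase assembly, fell by 1.80 over 98 matches, with means of 0.245, 0.293 and 0.346 against 0.862, 1.06 and 1.15. In both of these promoters the 2 sets of 3 values lay apart.

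The other 3 that fell belonged to Clasp1, a microtubule plus-end protein, Epb41l5, a band 4.1 family protein, and Nifk, a nucleolar protein that binds Ki-67. Clasp1, tested with the fragment P010 inside the gene, gave 1.13, 1.25 and 1.31 over 82 matches against 3.75, 4.05 and 3.92 in the reverse order. Epb41l5 gave 0.183, 0.200 and 0.234 over 42 matches against 0.570, 0.549 and 0.584. Nifk gave 0.931, 1.13 and 1.17 over 73 matches against 2.46, 2.97 and 2.87. The log2 differences were -1.67 for Clasp1, -1.47 for Epb41l5 and -1.36 for Nifk, and the orders did not overlap in any of them. The exception in the broadly expressed group was P006, given here to Tsn, which encodes the nucleic acid binding protein translin. P006 lay 231 bp outside the RefSeq edge of the gene and held no RefSeq start. That edge lies inside E017, which the library lists as a cCRE and which is described below. The values called Tsn here are therefore those of P006 and not of the fragment at the edge. P006 gave 0.0745, 0.130 and 0.113 against 0.0560, 0.103 and 0.101 over 152 matches. The difference was 0.30 ± 0.13 (SD, n = 3, adjusted p 0.375 by limma, 2.81e-05 with the block).

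The 3 promoters that rose were weak. Distances to genes were measured to edges of protein-coding genes only. P014, 3688 bp from the nearest such edge, that of Gli2, gave 0.112, 0.178 and 0.169 with the promoter first over 74 matches. With the cCRE first it gave 0.0539, 0.0856 and 0.0730, a difference of 1.11 ± 0.09 (SD, n = 3, adjusted p 0.00319 by limma). P015, 88255 bp from the nearest such edge, differed by 1.02 over 44 matches, and P020, at the start of 3830432H09Rik, by 0.47 over 177 matches. Both calls were lost without replicate 3, with an adjusted p of 0.0954 for P015 and 0.233 for P020, and the call of P020 was also lost without replicate 2 (0.206). Both were also lost with the median over matches (0.0798 and 0.656) and with zeros kept (0.121 and 0.0845).

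The other 5 promoters not called fell on both sides of 0. The fragment P012 of Tfcp2l1 gave 0.121, 0.154 and 0.155 against 0.137, 0.169 and 0.177 over 138 matches, a difference of -0.17 (adjusted p 0.384 by limma, 0.0102 with the block). Gli2, a transcription factor of hedgehog signalling, gave 0.119, 0.158 and 0.159 against 0.119, 0.152 and 0.161 over 254 matches, and its difference of 0.01 changed sign without replicate 2. This averaged opposite differences, -0.39 over 123 matches in the plus strand and 0.38 over 131 in the minus strand. Neither was called (adjusted p 0.121 and 0.117 by limma, 3.52e-06 with the block for each). For C1ql2, a secreted synaptic protein, the difference was 0.55 over 48 matches (adjusted p 0.0547 by limma, 9.87e-10 with the block). For Marco, a scavenger receptor of macrophages, it was 0.48 over 155 matches (0.128, and 1.51e-08 with the block). P016 lies 86189 bp from the nearest edge of a protein-coding gene, that of Inhbb. Its difference was 0.54 over 423 matches (0.0572, and 9.87e-10 with the block). In C1ql2, P016 and Marco each replicate was higher with the promoter first than with the cCRE first, and the ranges overlapped in P016 and Marco.

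The strand of the promoter changed this picture. The labels do not say what the strand refers to. The plus construct was the more active one alone for Nifk, a gene on the plus strand, and also for Ralb and Tmem177, genes on the minus strand. When each strand was averaged on its own, an analysis added after the data were seen, 14 of 26 oriented promoters changed with order (53.8% of those tested), 8 lower (30.8%) and 6 higher (23.1%). With the block 25 were called, 11 lower and 14 higher. The count was 24 when replicate 1 was left out and 9 when replicate 3 was.

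The 4 plus promoters with the largest falls reached their level alone when the cCRE came first and stood 8.65-fold to 9.55-fold lower when they came first. Nifk in the plus strand gave 14.8, 17 and 17.6 alone. Over 34 matches it gave 14.3, 15.9 and 15.9 with the cCRE first and 1.45, 1.87 and 1.74 with the promoter first. The second order was 9.13-fold lower (log2 difference -3.19 ± 0.11, SD, n = 3, adjusted p 1.28e-07 by limma), with no overlap. In the minus strand the same fragment gave 0.613, 0.680 and 0.716 alone, 0.530, 0.690 and 0.646 with the cCRE first and 0.632, 0.733 and 0.832 with the promoter first. These values overlapped, and the difference of 0.24 was not called (adjusted p 0.243, 0.00221 with the block).

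Ralb in the plus strand gave 5.68, 6.57 and 7.43 alone, 5.83, 6.95 and 6.94 with the cCRE first and 0.589, 0.703 and 0.779 with the promoter first, 9.55-fold lower over 36 matches. For Ptpn4 in the plus strand these values were 6.74, 7.28 and 7.93 alone, 6.35, 6.90 and 7.20 with the cCRE first, and 0.696, 0.808 and 0.866 with the promoter first, 8.65-fold lower over 206 matches. For Tmem177 in the plus strand they were 2.36, 2.57 and 3.26 alone, 2.78, 3.32 and 3.68 with the cCRE first, and 0.302, 0.357 and 0.425 with the promoter first, 9.05-fold lower over 49 matches. In each of these plus promoters the values with the promoter first lay apart from both other sets. The minus strands of the same fragments changed less, by -1.36 for Ralb, -0.42 for Ptpn4 and -0.43 for Tmem177 on the log2 scale. The call of Ptpn4 in the minus strand (adjusted p 0.0348 by limma) was lost without replicate 2 (0.300), without replicate 3 (0.298) and with zeros kept (0.0541). Clasp1 in the minus strand gave 4.84, 5.21 and 5.42 alone, and was 3.15-fold lower with the promoter first over 81 matches.

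The 6 oriented promoters called higher were weak, and C1ql2, Marco and P016, not called with both strands averaged, were each called in 1 strand. Marco in the minus strand gave 0.168, 0.244 and 0.230 with the promoter first over 16 matches and 0.0801, 0.109 and 0.0999 with the cCRE first, a difference of 1.14 ± 0.07 (SD, n = 3, adjusted p 0.000944 by limma) without overlap. P014 in the minus strand differed by 1.10 (0.00372) and P015 in the minus strand by 1.02 (0.0247). P016 in the plus strand differed by 0.72 (0.0223), C1ql2 in the minus strand by 0.72 (0.0260) and 3830432H09Rik in the plus strand by 0.67 (0.00362). Without replicate 3 the calls of P015 (0.0879), P016 (0.130), C1ql2 (0.0879) and 3830432H09Rik (0.0879) were lost, and without replicate 2 those of C1ql2 (0.0776) and 3830432H09Rik (0.1001). With zeros kept those of Marco (0.0773), P015 (0.0719) and C1ql2 (0.0719) were lost, and that of P014 was kept in each of these alternatives.

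The difference between strands was tested directly in 634 sets of 4 constructs, with both orders and both promoter strands beside the same cCRE in the same strand. The order difference of the plus strand minus that of the minus strand was called in 309 sets (48.7% of those tested, limma with Benjamini-Hochberg adjustment), in 237 of them negative (37.4%) and in 72 positive (11.4%), with a median of -0.88. Without replicate 2 and without replicate 3 the positive sets each numbered 47. Ptpn4 had 154 of these sets, of which 136 were negative and 3 positive, with a median of -2.46. Nifk was negative in 16 of 16 sets with a median of -3.08, Tmem177 in 13 of 16 with -2.62, and Ralb in 7 of 11 with -1.22. Gli2 was negative in 32 of 93 sets and positive in 7, and P016 was positive in 38 of 174 and negative in 18. The sets of 1 promoter share its fragment and are not replicates of each other.

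Taken singly, the 2 orders differed in how far the promoter strand mattered. With the promoter first, flipping the promoter changed 394 of 1329 constructs, 272 higher and 122 lower in the plus strand, or 29.6% against a background of 24.5% over all first fragments of the library, of which 14.1% were higher and 10.4% lower. Without replicates 1, 2 or 3 these calls fell to 231, 91 and 107. With the promoter second, 823 of 1694 constructs changed (48.6%, against 37.2% over all second fragments of the library), 685 of them higher in the plus strand, with a median difference of 0.78 against 0.21 with the promoter first. For Ptpn4 the plus strand exceeded the minus strand by a median of 0.64 over 252 constructs with the promoter first and by 3.51 over 195 with the promoter second, where 194 of them were called higher. For Nifk these medians were 1.50 over 67 constructs and 4.94 over 49, and for Tmem177 0.71 over 69 and 3.34 over 50. These medians were positive in both positions, and the sets of 4 constructs give the test of their difference.

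Flipping the cCRE beside an unchanged promoter changed 598 of 1494 constructs with the promoter first, 323 higher and 275 lower in the plus strand of the cCRE (40.0%, against the same background of 37.2%, with 21.4% higher and 15.8% lower). The median difference was 0.10. These calls numbered 222 without replicate 2 and 273 without replicate 3.

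Against the promoter alone, 1981 of the 4720 constructs were lower and 1090 higher (limma with Benjamini-Hochberg adjustment). The 3071 calls are 65.1%, against 61.8% of all 50423 constructs of the library compared with their first fragment alone, of which 27.1% were lower and 34.7% higher. The median difference was -0.85, and all constructs of an oriented promoter share its 3 baseline values. Constructs of strong promoters mostly fell. Placing a cCRE after Tmem185b in the plus strand, whose activity alone was 7.94, 8.71 and 9.42, lowered 102 of 109 constructs with a median of -3.76. Ralb in the plus strand fell in 191 of 202 constructs (median -3.67), Ptpn4 in 281 of 302 (-3.41), Nifk in 135 of 142 (-3.26), Tmem177 in 212 of 248 (-3.00) and Clasp1 in the minus strand in 141 of 170 (-2.22). With the cCRE before the same oriented promoters the medians were 0.01 for Tmem185b, -0.04 for Ralb, -0.14 for Ptpn4, -0.17 for Nifk, -0.02 for Tmem177 and -0.40 for Clasp1. Tmem185b had 15 such constructs and too few matches to enter the average per promoter.

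Weak promoters changed the other way or in both directions. C1ql2 in the plus strand, with 0.0209, 0.0407 and 0.0634 alone, rose in 44 of 105 constructs and fell in 2. In the minus strand, with 0.0241, 0.0434 and 0.0586 alone, it rose in 51 of 133 and fell in 4. Marco in the plus strand rose in 77 of 230 constructs and fell in 21, and P015 in the minus strand rose in 47 of 156 and fell in 0. The Tfcp2l1 fragment P012 in the plus strand rose in 74 of 245 constructs and fell in 79. Tsn in the plus strand, with 0.225, 0.263 and 0.263 alone, fell in 141 of 205 constructs and rose in 25, with a median of -2.48. The baselines of C1ql2 lay near or below the eempty pair, which gave 0.0459 to 0.0658. So did those of P015 in the minus strand (0.0208, 0.0484 and 0.0450) and of Marco in the plus strand (0.0460, 0.0796 and 0.0674). How far such low baselines limited the falls that could be called was not tested. The baselines of P012 and Tsn in the plus strand lay above the eempty pair.

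Against the cCRE alone, 1509 of 4684 constructs were higher and 876 lower, and the median difference was 0.02. The 2385 calls are 50.9%, against 50.5% of all 50038 constructs compared with their second fragment alone, of which 32.8% were higher and 17.7% lower. Without replicate 2 the constructs called lower numbered 541, and without replicate 3 474. Behind strong promoters most constructs lay above the cCRE alone. Nifk in the plus strand gave more than the cCRE alone in 128 of 142 constructs and less in 0, with a median of 3.76. Clasp1 in the minus strand was higher in 159 of 169 (median 3.07), Ptpn4 in the plus strand in 225 of 299 (2.49) and in the minus strand in 192 of 266 (1.97). P015 in the minus strand was lower than the cCRE alone in 77 of 155 constructs (median -1.47), and Tsn in the plus strand in 89 of 202 (-1.39).

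In 11.9% of the 4684 constructs (556) activity exceeded the sum of both fragments alone, compared with 16.6% of 4933 with the cCRE first. Among pairs of cCREs this share was higher, at 24.5% of 39759. The median difference from that sum was -1.80 with the promoter first, -1.12 with the cCRE first, -1.12 for pairs of cCREs and -1.42 for pairs of promoters. Over the 2234 matches, log2 activity with the promoter first correlated with the cCRE alone (Pearson's r = 0.65) more closely than with the promoter alone (r = 0.43). With the cCRE first the order was reversed, with r = 0.34 for the cCRE and r = 0.79 for the promoter. The order difference correlated with the promoter alone at r = -0.57, with the cCRE alone at r = 0.26, and with their distance in the genome at r = 0.05. These coefficients describe constructs that share fragments and the same 3 samples, and no p was computed.

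Constructs with the promoter first lay near the level of the cCRE alone for E017, E060 and E166, 3 of the most active cCREs, and below it for E301. E017 (chr1:118311123-118311573, mm10 as the submitters' processing notes give it) spans the RefSeq edge of Tsn at position 118311461. Alone it gave 21.6, 20.9 and 23.8 as a mean over its constructs, and 24.2, 23.3 and 26.5 over 51 constructs with a promoter first, which ranged from 7.90 to 40.2 with a median of 27.4. All 51 exceeded the promoter alone. By strand, E017 alone gave 31.2 in the minus strand and 15.6 in the plus strand. The 23 matches used its minus strand, except the match with Marco in the minus strand. In the 23 matches the mean was 28.4, 27.0 and 30.6 with the promoter first and 4.38, 4.21 and 4.57 with the cCRE first, a difference of 2.71 ± 0.03 (SD, n = 3, adjusted p 3.92e-05 by limma). No replicate overlapped, and 20 of the 23 matches were called higher and 0 lower. The activities spread less with the promoter first (13.3 to 39.9, SD 0.40 on the log2 scale) than with the cCRE first (0.496 to 23.9, SD 1.62).

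Single partners of E017 showed this contrast. With P015 in the minus strand, 0.0357 alone, the pair gave 24.7 with the promoter first and 0.496 with the cCRE first. With Marco in the plus strand, 0.0627 alone, it gave 30.0 and 0.907. With Ralb in the plus strand, 6.52 alone, it gave 31.5 and 23.9, and with Tfcp2l1 P012 in the minus strand, 0.156 alone, 17.2 and 17. E017 with the promoter first was thus high beside each of these partners, and with the cCRE first it was high beside some and low beside others.

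E060 (chr1:118647958-118648408), inside Tfcp2l1, gave 10.9, 10.9 and 9.79 over 61 constructs with the promoter first and 11.1, 10.9 and 9.96 alone. Over 43 matches it gave 9.77, 9.78 and 8.86 with the promoter first and 4.65, 4.54 and 4.30 with the cCRE first, a difference of 1.07 ± 0.03 (SD, n = 3, adjusted p 0.00392 by limma), with 26 matches higher and 8 lower. Alone, E166 gave 3.44, 3.31 and 3.62, beside 3.24, 3.27 and 3.46 over 46 constructs with the promoter first. E301 gave 3.05, 2.92 and 2.81 alone and 1.91, 1.97 and 1.87 over 20 such constructs, of which 8 were below the cCRE alone and 0 above. In matches, E166 (chr1:119398645-119399095), 16368 bp from Inhbb, gave 2.96, 2.94 and 3.16 against 1.83, 1.76 and 2.03 over 29 matches, and E301 (chr1:120529869-120530319), 24845 bp from Marco, gave 2.25, 2.55 and 2.26 against 1.67, 1.51 and 1.29 over 11 matches. In all 3 the means of the 2 orders did not overlap between replicates, but single matches went both ways. E166 had 16 matches called higher and 6 lower, and E301 had 8 and 2. Beside Ptpn4 in the plus strand, E166 in the minus strand gave 3.53 with the promoter first and 18.6 with the cCRE first. For E301 in the minus strand these values were 0.445 and 13.9. The means of E060, E166 and E301 mix both strands of the cCRE. Alone, E060 gave 7.34 in the minus strand and 15.5 in the plus strand, E166 3.79 and 3.15, and E301 1.75 and 4.89. Activity with the cCRE first correlated with the promoter alone at r = 0.53 for E017 (n = 23), 0.68 for E060 (n = 43), 0.82 for E166 (n = 29) and 0.91 for E301 (n = 11). With the promoter first these coefficients were 0.20, -0.17, -0.25 and -0.44. Both strands of each cCRE were pooled in them. For E301 the partners gave 0.0357 to 0.113 alone except Ptpn4 in the plus strand (7.30), so both its coefficients rest on that promoter. For E166 the only strong partners were Ptpn4 and Tmem177 in the plus strand (7.30 and 2.71 alone). These 4 cCREs were known from earlier results of these data to be among the strongest, so their level here is a description.

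The remaining one of the 5 most active cCREs, E071 (chr1:118740997-118741447), lies outside protein-coding genes, with Tfcp2l1 as the nearest. It gave 2.78, 3.21 and 2.81 over 29 constructs and 2.30, 2.47 and 2.34 alone. The weakest with at least 10 constructs were E073, E093, E291, E123 and E035. E073 gave 0.0146, 0.0407 and 0.0505 over 11 constructs, and 7 of these 11 were below the promoter alone and 0 above. E291 gave 0.0346, 0.0732 and 0.0716 over 35 constructs, with 20 below the promoter alone and 0 above. E035, inside Clasp1, gave 0.0460, 0.0754 and 0.0672 over 24 constructs, with 14 below the promoter alone and 2 above. These 3 means lay between 0.0146 and 0.0754, beside 0.0459 to 0.0658 for the eempty pair. Over all 4720 constructs, 42.0% were below the promoter alone and 23.1% above. These cCREs were picked for low activity with the promoter first, so their counts below the promoter are a description.

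Averaged over matches, 63 of 137 cCREs with at least 3 matches changed with order (46% of those tested, limma with Benjamini-Hochberg adjustment), 50 lower (36.5%) and 13 higher (9.49%). Because cCREs were matched with different promoters, the mean of each oriented promoter was also removed first, an alternative added after the data were seen. Then 32 cCREs were called (23.4%), 18 higher and 14 lower. For the plain average, the 63 calls became 29 without replicate 2 and 11 without replicate 3, and with the block the number called higher was 20. The median over matches in place of the plain mean gave 28 higher and 19 lower. The cCREs called lower thus numbered 50, 14 or 19 by the summary used.

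The 5 highest differences among the 87 cCREs with at least 10 matches belonged to E017, E032, E297, E027 and E148. E032, inside Clasp1 (chr1:118459316-118459766), gave 0.900, 0.947 and 1.25 with the promoter first and 0.293, 0.356 and 0.421 with the cCRE first over 25 matches, a difference of 1.53 ± 0.11 (SD, n = 3, adjusted p 0.0023 by limma). E297 (chr1:120468861-120469311), 5227 bp from Marco, differed by 1.35 over 13 matches, E027, also inside Clasp1, by 1.15 over 12, and E148, in a stretch nearest to Inhbb, by 1.10 over 16. With promoter means removed these were 1.80, 1.35, 1.22 and 1.27, and E017 reached 2.91. The calls of E027 and E148 were lost without replicate 3 (adjusted p 0.0674 for each), and that of E148 also without replicate 2 (0.0646).

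The 5 lowest belonged to E095, E282, E143, E086 and E097, of which E095, E086 and E097 lie inside Gli2. E095 gave 0.103, 0.159 and 0.132 with the promoter first and 0.443, 0.548 and 0.459 with the cCRE first over 18 matches, a difference of -1.90 ± 0.18 (SD, n = 3, adjusted p 0.000658 by limma). E282, nearest to C1ql2, differed by -1.84, E143 by -1.77, E086 by -1.64 and E097 by -1.42. With promoter means removed they were closer to 0, at -0.94 for E095, -1.48 for E282, -0.997 for E143, -1.24 for E086 and -0.86 for E097, the last with an adjusted p of 0.0687. Without replicate 3 the calls of E086 (0.0674) and E097 (0.0819) were lost, and the median over matches ended that of E086 (0.232). All 5 were weak alone, with E097 the highest at 0.159, 0.214 and 0.181. Over the 87 cCREs the difference with promoter means removed correlated with the log2 activity of the cCRE alone (Pearson's r = 0.68, Spearman's rho = 0.59). The 87 points share the 3 samples and the promoters, and no p was computed.

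In 9 of the 10 pairs with the largest order differences the higher construct lay far above both its fragments alone. Gli2 in the minus strand before E227 in the minus strand gave 3.11, 2.71 and 2.61, while the reverse order gave 0.00618, 0.0108 and 0.0407. The promoter alone gave 0.0894, 0.112 and 0.143 and the cCRE alone 0.0623, 0.0890 and 0.0891, and the log2 difference between orders was 7.65 ± 1.51 (SD, n = 3, adjusted p 0.000629 by limma). Of the other orientations listed with the promoter first, 1 had a mean of 0.0126 and 1, with a replicate at 0, gave 0.151, 0.0212 and 0. The Tfcp2l1 fragment P011 before E209 gave 2.72, 2.44 and 2.17 against 0.00887, 0.0171 and 0.0241, and the 1 other orientation reached 0.234. Tsn before E029 gave 4.55, 5.31 and 4.38 against 0.0154, 0.0487 and 0.0667, and 2 of the other orientations had means of 0.0116 and 0.0164. The remaining orientation of Tsn and E029 had a replicate at 0 and gave 0, 0.0972 and 0.284. Marco before E189 (difference 6.80) and Gli2 in the plus strand before E035 (6.38) completed the 5, and their other orientations reached at most 0.0342 and 0.0529.

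In the opposite direction, Ptpn4 in the plus strand before E143 gave 0.0317, 0.0501 and 0.0405, and the reverse order gave 6.27, 7.18 and 7.60. The promoter alone gave 6.74, 7.28 and 7.93, and the cCRE in the other strand before the same promoter gave 7.17. With the promoter first, the other strand of the cCRE gave 0.625, so that the low value of this pair was not shared by the flipped cCRE. The other 4 were high with the cCRE first although both fragments were weak alone. They were 3830432H09Rik with E214 (difference -7.52), Marco with E086 (-7.36), P016 with E250 (-7.31) and C1ql2 with E066 (-7.08). Marco with E086 gave 3.49, 2.74 and 3.96 with the cCRE first, and 1 of the other 3 orientations reached 1.21. The other orientations of the remaining 3 pairs that were above 0 in all replicates had means of at most 0.126.

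Across all constructs, 28 of 4684 with the promoter first (0.598%) exceeded the sum of both fragments alone by more than 8-fold, a limit chosen after the data were seen. For 25 of them another orientation of the same 2 fragments was above 0 in all replicates in the same order, and it exceeded that limit in 0. With the cCRE first 39 of 4933 constructs (0.791%) did so, with another orientation above the limit in 2 of 33. Among pairs of cCREs these numbers were 291 of 39759 (0.732%) and 4 of 200. All 3 replicates drew on the same plasmids, and the part of single plasmids in these values was not tested.

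The pairs highest over the promoter alone all held E017 or E060 behind a weak promoter. C1ql2 in the plus strand before E017 gave 31.8, 31.7 and 33.7, against 0.0209, 0.0407 and 0.0634 for the promoter and 31.3, 29.0 and 33.5 for the cCRE alone. The log2 difference from the promoter was 9.74 ± 0.77 (SD, n = 3, adjusted p 1.11e-05 by limma), and the construct lay at the level of its cCRE. P023 before E017 (9.69) and before E060 (9.61), Tmem37 before E017 (9.56) and P015 before E017 (9.44) followed. The pairs lowest against the promoter alone held strong promoters in the plus strand. Of their cCREs, E093 in the plus strand had no value alone, and the others were weak alone. Ralb before E073 gave 0.00219, 0.109 and 0.0556, a difference of -8.10, in which replicate 1 stood far below the others. Tmem185b before E046 gave 0.0442, 0.0348 and 0.0401 (difference -7.78), and Ptpn4 before E288 (-7.74), Ptpn4 before E143 (-7.51) and Ralb before E093 (-7.50) were close to it.

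Against the cCRE alone, the largest rise was Nifk in the plus strand before E295, with 13.7, 12.5 and 12.6 against 0.0529, 0.0707 and 0.0686 (7.67). C1ql2 before E046 (7.59), Nifk before E290 (7.46), Tsn before E234 (7.46) and Gli2 before E035 (7.22) followed. The largest falls were 3830432H09Rik before E077, with 0.0517, 0.00646 and 0.0212 against 1.26, 1.41 and 1.57 (-6.20), P015 before E267 (-6.17), Marco before E119 (-5.57), Tsn before E073 (-5.31) and Tsn before E072 (-4.98). The call of P015 before E267 was lost without replicate 1 (adjusted p 0.0796) and without replicate 3 (0.0791), and that of Tsn before E073 without replicate 2 (0.0620). Of these 5 cCREs E077 was the most active alone.

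Among the promoter flips, C1ql2 before E046 gave 4.81, 5.41 and 5.48 in the plus strand and 0.00416, 0.0272 and 0.0203 in the minus strand, a difference of 8.63. Gli2 before E035 (8.58) and C1ql2 before E053 (7.66), E029 (7.11) and E212 (6.45) came next. In the other direction stood Gli2 before E227 (-7.80), Inhbb before E094 (-6.81), Tfcp2l1 P012 before E133 (-6.70), 3830432H09Rik before E200 (-6.42) and Tfcp2l1 P012 before E134 (-6.33). Of these 10 calls, 6 were lost without 1 of the replicates, at adjusted p values from 0.0549 to 0.134, and those of C1ql2 before E046 and E029, P012 before E133 and 3830432H09Rik before E200 were kept. Among the cCRE flips, Tsn before E029 (8.17), Gli2 before E267 (7.48) and P012 before E283 (7.32) were the highest, followed by Marco before E265 (6.67) and Gli2 before E035 (6.65). The lowest were Tsn before E092 (-6.67), P016 before E290 (-5.42), P015 before E142 (-5.38), P014 before E094 (-4.89) and 3830432H09Rik before E028 (-4.87). The call of Gli2 before E267 was lost without replicate 2 (adjusted p 0.0761). Gli2 with E035 and Tsn with E029 stood among the extremes of several comparisons because the same construct with the promoter first entered each of them.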

How the data were processed

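The values are activities per construct and biological replicate that the authors deposited as a ratio, reporter RNA barcodes over plasmid barcodes on a linear scale. The submitters' processing notes name mm10 and Bowtie2. How barcodes were counted, filtered and scaled is not given in the sources used here. Columns of derived values that could not be given to 1 sample (3) were not used.

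Tests were run on log2 activities by limma 3.58.1 under R 4.3.3 (lmFit and eBayes, two-sided), 3 values against 3, with Benjamini-Hochberg adjustment at 0.05 over all Tfcp2l1 constructs of that comparison. Constructs at 0 in a replicate were left out. Averages needed 10 matches per promoter and 3 per cCRE. Values compared come from the same cDNA sample, which pairs them. For single constructs compared by order or with 1 fragment alone, deviations of same-numbered values correlated at r from 0.0371 to 0.191. This correlation was not computed for the averages per promoter or cCRE, where the block changed more calls. The block was an alternative throughout. An SD printed with a difference is that of the 3 replicate differences, while the p by limma comes from the unpaired fit and does not measure that spread. In the averages per promoter the p with the block did not follow that spread either. Other alternatives were a pseudocount of 0.01 with zeros kept, a mean activity of at least 0.1, other minimum numbers of matches, medians and each replicate left out.

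All promoters with 10 matches were named, with the 5 highest and 5 lowest cCREs by order difference (10 matches, same sign in all replicates), the same by activity (10 constructs), the 5 largest changes each way per test, and E017, E060, E166 and E301. Constructs, lists and rules were chosen with earlier results of these data known. The order fit was tested on simulated data in which 100 of 11079 matches were changed at each of 2 sizes. It recovered 34% of log2 changes of 2 and 76% of changes of 4, and 5.17% of its calls were false. In the real data 4551 matches were called, so these shares need not hold there. Tables were handled in Python 3.11.15 with numpy 2.4.6 and pandas 2.3.3. Promoter sequences came from RefSeq (GRCm38.p6), and no genome was used for the cCREs.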

Additional observations from a re-analysis of the deposited data

How the results depend on the processing

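All 50 named pairs and all 10 named cCREs kept their direction in all alternatives run, as did 14 of 15 promoters and 25 of 26 oriented promoters. The difference of Gli2 (P013) turned to -0.0092 without replicate 2 (up to 0.026 without another) and to -0.17 with zeros kept. That of P012 in the plus strand ranged from -0.011 to 0.11 without 1 replicate, and none of these was called. The replicate block gave 14 promoters (7 higher), 25 oriented promoters (14 higher) and 20 cCREs higher, and moved no other count by over 1.5 times. It called P006, P012, P016, P031 and P033 beside those called without it. Zeros kept with the pseudocount gave 1 promoter and 3 oriented promoters higher. Removing promoter means gave 32 cCREs, 14 of them lower, and medians over matches gave 28 cCREs higher and 19 lower.

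Leaving out 1 replicate gave 668 to 883 order calls (218 to 326 higher, 450 to 557 lower), 2491 to 2969 against the promoter alone (904 to 1036 higher, 1569 to 1933 lower) and 1709 to 2218 against the cCRE alone (1220 to 1438 higher, 474 to 780 lower). It gave 91 to 231 promoter flips (63 to 167 higher, 28 to 64 lower), 222 to 405 cCRE flips (126 to 219 higher, 96 to 186 lower) and 235 to 283 sets by strand (47 to 62 higher, 188 to 221 lower). Averages gave 7 to 13 promoters (1 to 7 higher, 6 to 6 lower), 9 to 24 oriented promoters (2 to 13 higher, 7 to 11 lower) and 11 to 76 cCREs (4 to 17 higher, 7 to 59 lower). Calls rest on 3 transfections of 1 plasmid pool, and without barcode numbers the precision of low activities is unknown.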
